A study of Mus musculus with 3 samples.

Results

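Messenger RNA of 10 ATP-binding cassette (ABC) transporters was compared in isolated brain vessels of mice with and without connexin 43 in astroglia. The 10 genes were chosen by name: Abcb1a, Abcb1b and Abcg2, the multidrug efflux pumps of the blood-brain barrier; Abcc1, Abcc4, Abcc5 and Abcc6 of the multidrug resistance-associated protein family; and Abca1, Abca2 and Abcg1 of lipid transport. All 10 were found among the 29775 genes of the deposited tables, and all 10 were among the 16307 genes called measured, which had a normalised level of 1 CPM (reads on the gene's main transcript, scaled to library size) or more in at least 1 library. The tissue was brain vessels of 3-month-old mice, sequenced as polyadenylated RNA in 3 libraries with 1 library per group. The Cx43-deleted library came from hGFAP-Cre/Cx43fl/fl mice, labelled Cx43 -/-, with a C57BL6-BALB/c genetic background: the human GFAP promoter drives Cre in astroglia, so the deletion of Gja1, the connexin 43 gene, is directed to astroglia. The other libraries came from wild-type (WT) mice of the C57BL6-BALB/c background and from WT C57BL6 mice. The number of animals behind each library was not given in the sources used here. With 1 library per group no test was possible, and every interval below covers counting error only, not the spread between animals.

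ABC transporters use ATP to move substrates across membranes. In brain capillaries, P-glycoprotein, which mice encode with the Abcb1a and Abcb1b genes, and the breast cancer resistance protein, encoded by Abcg2, sit in the luminal membrane of the endothelial cell and return drugs and other lipophilic compounds to the blood. Abcc proteins export organic anions and conjugates, and Abca1 and Abcg1 load cellular cholesterol onto lipoproteins. Astrocyte endfeet, which are rich in connexin 43, surround these capillaries.

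The library totals were 54975610 reads with Cx43 deleted, 21170766 in WT C57BL6-BALB/c vessels and 24830975 in WT C57BL6 vessels. Gja1 stood at 48.1 CPM in Cx43-deleted vessels, 202.1 in WT C57BL6-BALB/c vessels and 201.2 in WT C57BL6, so the library labelled as deleted was 4.20-fold below the first WT library (counting interval 4.0 to 4.41) and 4.18-fold below the second (3.99 to 4.39). Reads of every cell type list examined were present: none of the 20 endothelial markers, and no marker of the pericyte, smooth muscle, astrocyte, microglia, oligodendrocyte, neuron, choroid plexus or fibroblast lists, was at 0 in any library. The 20 endothelial markers summed to 2268 CPM per kilobase in Cx43-deleted vessels, 2065 in WT C57BL6-BALB/c vessels and 3434 in WT C57BL6. Without Slc2a1, the most abundant of them in Cx43-deleted vessels, the sums were 1454, 1581 and 2793, so the order of the Cx43-deleted and WT C57BL6-BALB/c libraries rests on that marker. Of the 20 markers, 19 were lower in each C57BL6-BALB/c-background library than in WT C57BL6. Because of this, ratios are also given below with the endothelial markers set level, that is, with each library rescaled so that the median log2 ratio of these markers is 0. In bulk RNA of this kind, fewer cells of a type and less RNA per cell cannot be told apart.

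Levels of different genes were set side by side per kilobase of the most abundant transcript, as CPM per kilobase. By the mean of the 3 libraries, Abcc5 was the most abundant of 53 ABC family genes, at 99.9, and 97.8% of measured genes lay below it. Abca2 (60.0), Abcb1a (58.3) and Abcg2 (41.1) followed in that order. The level of Abcb1a is less certain than those of Abca2 and Abcg2. Of its 36-base windows, 22.9% also occur in transcripts of other genes, where none do for Abca2 and Abcg2. Reads covered 84.7% to 89.2% of its bases, against 99.2% to 99.8% for Abca2. How reads that match several genes were counted was not given, so the place of Abcb1a in this order is uncertain. The neighbours Abca2 and Abcb1a changed places between libraries: Abca2 was above Abcb1a in Cx43-deleted vessels (72.5 and 53.6) and in WT C57BL6-BALB/c vessels (58.9 and 44.3), and below it in WT C57BL6 (48.6 and 77.0). Abcg2 was 4th of the family in Cx43-deleted vessels, 6th in WT C57BL6-BALB/c vessels and 3rd in WT C57BL6, and Abcc4 (mean 28.8) was 6th, 11th and 6th. Abcg1 (12.5), Abcc1 (11.1) and Abca1 (8.86) ranked between 21st and 28th in each library. The place of Abcg1 among them depends on the length of its transcript, for which the deposited 3610 bases were used. With the 5832 bases of the GENCODE M21 annotation its levels would be 6.73 in Cx43-deleted vessels, 8.18 in WT C57BL6-BALB/c vessels and 8.25 in WT C57BL6, below Abcc1 in each library. Abcc6 (3.85) and Abcb1b (1.06) were the least abundant of the 10.

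**Figure D1:**
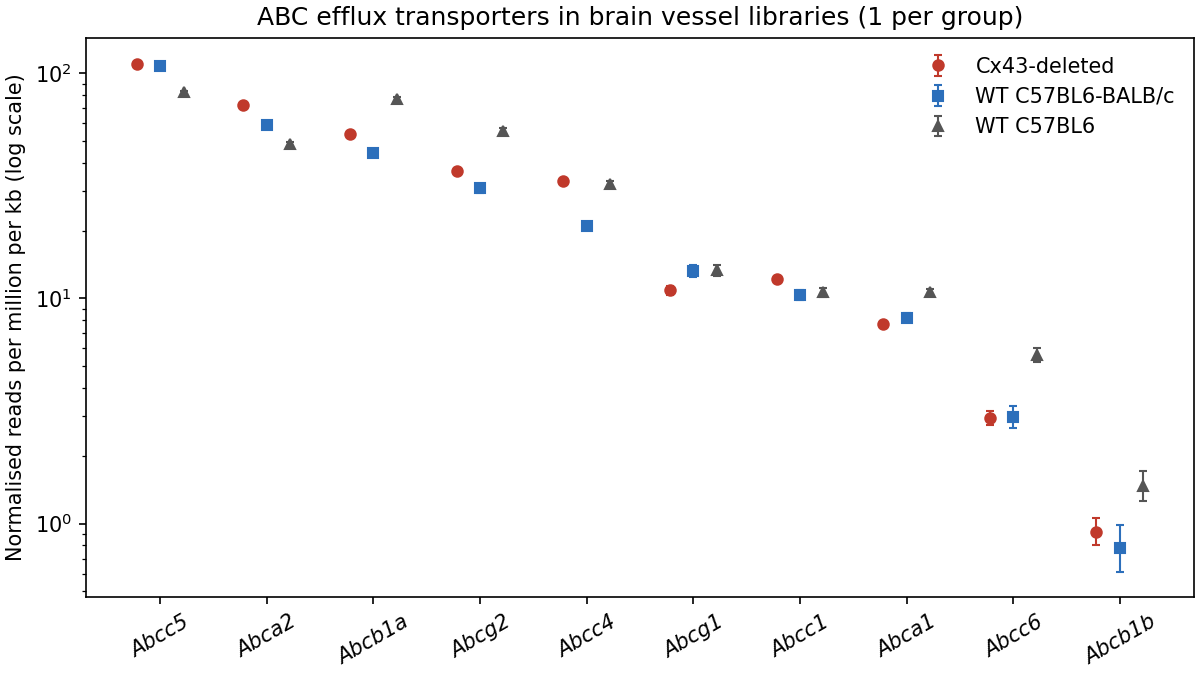
Level of each transporter in the 3 libraries, in CPM per kilobase on a log axis, ordered by the mean. Points are single libraries and bars are exact Poisson 95% intervals of the read count. The Cx43-deleted library is the highest of the 3 for Abcc5, Abca2, Abcc4 and Abcc1 and the lowest for Abcg1, Abca1 and Abcc6, and it lies between the WT libraries for Abcb1a, Abcg2 and Abcb1b. For Abcc5, Abcc4, Abcc6 and Abcb1b its difference from the nearer WT library is within counting error. With the library total alone Abcc4 and Abcc5 are no longer highest, and with the endothelial markers set level 8 of the 10 are highest and 0 lowest. The share of all measured genes was not counted with that last scaling.

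The drug pumps Abcb1a and Abcg2 stood 1.2-fold higher in Cx43-deleted vessels than in the WT library of the same background, and lower than in WT C57BL6 except when the endothelial markers were set level. Abcb1a (ENSMUSG00000040584, GRCm38 chr5:8660077-8748575, plus strand) is the isoform of P-glycoprotein that dominates in mouse brain capillaries. It had 14331 reads in Cx43-deleted vessels, 4680 in WT C57BL6-BALB/c vessels and 9822 in WT C57BL6, which are levels of 267.9, 221.2 and 384.6 CPM. WT C57BL6 was the highest and WT C57BL6-BALB/c the lowest. Against WT C57BL6-BALB/c the fold was 1.21 (counting interval 1.17 to 1.25), and 12.7% of measured genes had a higher ratio in that comparison. Against WT C57BL6, Abcb1a was 1.44-fold lower in Cx43-deleted vessels (1.4 to 1.47) and 1.74-fold lower in WT C57BL6-BALB/c vessels (1.68 to 1.8), so the gap between the WT libraries was larger than either gap to the Cx43-deleted library. It was the smallest of the 3 with the endothelial markers set level, with log2 ratios of 0.42 over WT C57BL6-BALB/c, 0.29 over WT C57BL6 and −0.14 between the WT libraries.

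Abcg2 (ENSMUSG00000029802, chr6:58584523-58695676, plus strand) kept the same order of libraries as Abcb1a. Its levels were 93.9 in Cx43-deleted vessels, 78.8 in WT C57BL6-BALB/c vessels and 142.0 in WT C57BL6, from 5026, 1667 and 3627 reads. The fold over WT C57BL6-BALB/c was 1.19 (1.13 to 1.26). It was 1.51-fold lower in Cx43-deleted vessels than in WT C57BL6 (1.45 to 1.58), and 1.8-fold lower in WT C57BL6-BALB/c vessels (1.70 to 1.91). Its 10 transcripts with 50 or more reads in each library share reads and gave log2 ratios between 0.17 and 0.39 against WT C57BL6-BALB/c and between −0.67 and −0.22 against WT C57BL6, so the direction was the same for each of them. The transcript with the most reads of the 10, 5026 in Cx43-deleted vessels, is annotated as a target of nonsense-mediated decay. A protein-coding transcript had 4963 reads there. Because these transcripts share reads, the counts do not tell which of them is the main form.

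Abcb1b (ENSMUSG00000028970, chr5:8798147-8866315, plus strand) encodes the other P-glycoprotein and lies just downstream of Abcb1a. It had only 212 reads in Cx43-deleted vessels, 71 in WT C57BL6-BALB/c vessels and 162 in WT C57BL6, levels of 3.96, 3.36 and 6.34. The order of libraries was again that of Abcb1a. Its fold over WT C57BL6-BALB/c, 1.18, had a counting interval of 0.898 to 1.57, so a difference was not detectable at this depth, and Abcb1b stood 1.60-fold below WT C57BL6 (1.30 to 1.97). Reads covered 61.6% of the bases of its transcript in Cx43-deleted vessels, 43.3% in WT C57BL6-BALB/c vessels and 60.2% in WT C57BL6, against 84.7% to 89.2% for Abcb1a.

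The read counts of these pumps are uncertain, because the genes are near copies of each other. How reads that match both were handled was not given. The division of reads between Abcb1a and Abcb1b and the total of each are therefore both uncertain. Over 3819 aligned coding bases Abcb1a and Abcb1b share 3360 (88.0%), and the longest identical run is 338 bases. Of the 36-base windows of the Abcb1a transcript, 22.9% also occur in transcripts of other genes, 973 of these 1138 windows in Abcb1b, and of the Abcb1b windows 24.7% do. With windows of 50 bases the shares were 18.6% and 19.6%. None of the 50-base windows of the other 8 transporters was shared with another gene. Most of the longest run is shown from Abcb1a, coding bases 1345 to 1632 counted from the start codon, since no read inside the run can be assigned to either gene by its sequence. The single capital near the start is the last base before the identical run that differs from Abcb1b, and the run of 15 capitals is the set of codons for the signature motif of the nucleotide-binding domain, which takes part in holding ATP:
Abcb1a coding stretch: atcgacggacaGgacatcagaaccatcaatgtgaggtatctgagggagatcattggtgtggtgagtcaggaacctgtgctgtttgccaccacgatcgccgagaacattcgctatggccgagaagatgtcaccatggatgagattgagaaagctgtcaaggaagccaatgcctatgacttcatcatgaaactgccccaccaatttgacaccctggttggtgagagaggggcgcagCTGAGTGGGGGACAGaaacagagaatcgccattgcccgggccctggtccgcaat
A further 4.84% of the exon bases of Abcb1a overlap Gm42686 and 2.42% of those of Abcb1b overlap Gm5106, both on the opposite strand, which the library kit does not tell apart.

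Of the organic anion exporters, Abcc4 showed the largest difference of the 10 transporters from the WT library of the same background. Abcc4 (ENSMUSG00000032849, chr14:118482692-118706219, minus strand) exports cyclic nucleotides, nucleoside analogues and conjugated steroids, and sits in the luminal membrane of brain endothelium and in the choroid plexus epithelium. It had 10144 reads in Cx43-deleted vessels, 2543 in WT C57BL6-BALB/c vessels and 4707 in WT C57BL6, levels of 189.6, 120.2 and 184.3. The Cx43-deleted library and WT C57BL6 lay together and WT C57BL6-BALB/c lay apart below them, except when the endothelial markers were set level. The log2 ratios were then 0.80 over WT C57BL6-BALB/c, 0.85 over WT C57BL6 and 0.04 between the WT libraries, so the WT libraries lay together and the Cx43-deleted library apart above them. The fold was 1.58 over WT C57BL6-BALB/c (1.51 to 1.65), a ratio that 2.30% of measured genes exceeded, and 1.03 over WT C57BL6 (0.994 to 1.07), an interval that includes no difference. With the library total alone as scaling the log2 ratio to WT C57BL6 was −0.04 in place of 0.04. WT C57BL6-BALB/c was 1.53-fold below WT C57BL6 (1.46 to 1.61).

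Abcc1 (ENSMUSG00000023088, chr16:14361558-14475737, plus strand), an exporter of glutathione conjugates and leukotrienes, was higher in Cx43-deleted vessels than in both WT libraries, by an amount that depends on the scaling. Its levels were 83.0 in Cx43-deleted vessels, 70.7 in WT C57BL6-BALB/c vessels and 72.3 in WT C57BL6. The WT libraries differed by less than the counting error (fold 0.978, interval 0.913 to 1.05). The folds of the Cx43-deleted library were 1.17 over WT C57BL6-BALB/c (1.11 to 1.25) and 1.15 over WT C57BL6 (1.09 to 1.21). With the endothelial markers set level the log2 ratios were 0.38 over WT C57BL6-BALB/c, 1.00 over WT C57BL6 and 0.62 between the WT libraries, which then were not alike.

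Abcc5 (ENSMUSG00000022822, chr16:20331303-20426394, minus strand), an exporter of cyclic GMP and other organic anions that is found in many brain cell types, was nearly level within the mixed background. The levels were 637.7 in Cx43-deleted vessels, 625.0 in WT C57BL6-BALB/c vessels and 478.7 in WT C57BL6, so WT C57BL6 was the low one. Over WT C57BL6-BALB/c the log2 ratio was 0.03, and it was −0.01 with the library total alone and −0.03 when reads were summed over transcripts, so no direction is given. Over WT C57BL6 the fold was 1.33 (1.30 to 1.36), and WT C57BL6-BALB/c stood 1.31-fold above WT C57BL6 (1.27 to 1.34). These log2 ratios were 1.22 and 1.04 with the endothelial markers set level. Its 11 transcripts gave log2 ratios between −0.37 and 0.07 over WT C57BL6-BALB/c, and between 0.18 and 0.59 over WT C57BL6.

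Abcc6 (ENSMUSG00000030834, chr7:45967555-46030302, minus strand), whose loss causes ectopic calcification of connective tissue, was one of the scarcest of the transporters. Its levels were 14.6 in Cx43-deleted vessels, 14.8 in WT C57BL6-BALB/c vessels and 27.9 in WT C57BL6, from 783, 314 and 713 reads. Both libraries of mixed background lay together at about the same value, with a fold of 0.986 (0.864 to 1.13), and both lay below WT C57BL6. It was 1.91-fold lower in Cx43-deleted vessels than in WT C57BL6 (1.72 to 2.11), the largest difference of the 10 transporters in that comparison, and 1.88-fold lower in WT C57BL6-BALB/c vessels (1.64 to 2.15). With the endothelial markers set level the log2 ratio over WT C57BL6 was −0.12, within its counting error and no longer the largest, and it was −0.25 between the WT libraries.

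The sterol exporters Abca1 and Abcg1 were lowest in Cx43-deleted vessels, though not when the endothelial markers were set level. Abca1 (ENSMUSG00000015243, chr4:53030787-53159895, minus strand) passes cholesterol and phospholipid to lipid-poor apolipoproteins. It stood at 79.4 in Cx43-deleted vessels, 84.2 in WT C57BL6-BALB/c vessels and 109.2 in WT C57BL6. The difference from WT C57BL6-BALB/c was small, 1.06-fold lower (1.00 to 1.12), and with the endothelial markers set level it turned to the other side (log2 ratio 0.06). Against WT C57BL6 it was 1.38-fold lower (1.31 to 1.44), and this too changed side with that scaling (log2 ratio 0.35).

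Abcg1 (ENSMUSG00000024030, chr17:31057675-31117988, plus strand), which exports cholesterol to mature high-density lipoprotein, was the clearest of those below both WT libraries. Its levels were 39.3 in Cx43-deleted vessels, 47.7 in WT C57BL6-BALB/c vessels and 48.1 in WT C57BL6. The WT libraries differed by less than the counting error, with a fold of 0.991 (0.911 to 1.08), and Cx43-deleted vessels stood 1.22-fold below WT C57BL6-BALB/c (1.13 to 1.31) and 1.23-fold below WT C57BL6 (1.14 to 1.32). With the endothelial markers set level, its log2 ratio was −0.13 over WT C57BL6-BALB/c and turned to 0.51 over WT C57BL6, and it was 0.64 between the WT libraries.

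Abca2 (ENSMUSG00000026944, chr2:25428703-25448540, plus strand), an endosomal lipid transporter known from oligodendrocytes and neurons, differed the other way from Abca1. It stood at 582.1 in Cx43-deleted vessels, 473.4 in WT C57BL6-BALB/c vessels and 390.4 in WT C57BL6. The folds were 1.23 over WT C57BL6-BALB/c (1.20 to 1.26) and 1.49 over WT C57BL6 (1.46 to 1.53), and WT C57BL6-BALB/c was 1.21-fold above WT C57BL6 (1.18 to 1.25). Set against level endothelial markers, the log2 ratios were 0.44 over WT C57BL6-BALB/c, 1.38 over WT C57BL6 and 0.94 between the WT libraries. All 7 of its transcripts with 50 or more reads in each library gave the same direction in the 3 comparisons. Beside it, 0 of the 10 oligodendrocyte markers were above both WT libraries and 7 were below both. Their median log2 ratio was −0.06 over WT C57BL6-BALB/c, −0.33 over WT C57BL6 and −0.37 between the WT libraries. Of the 10 neuronal markers 3 were above both and 4 below both. The neuronal median was −0.08 over WT C57BL6-BALB/c, 0.25 over WT C57BL6 and 0.28 between the WT libraries.

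**Figure D2:**
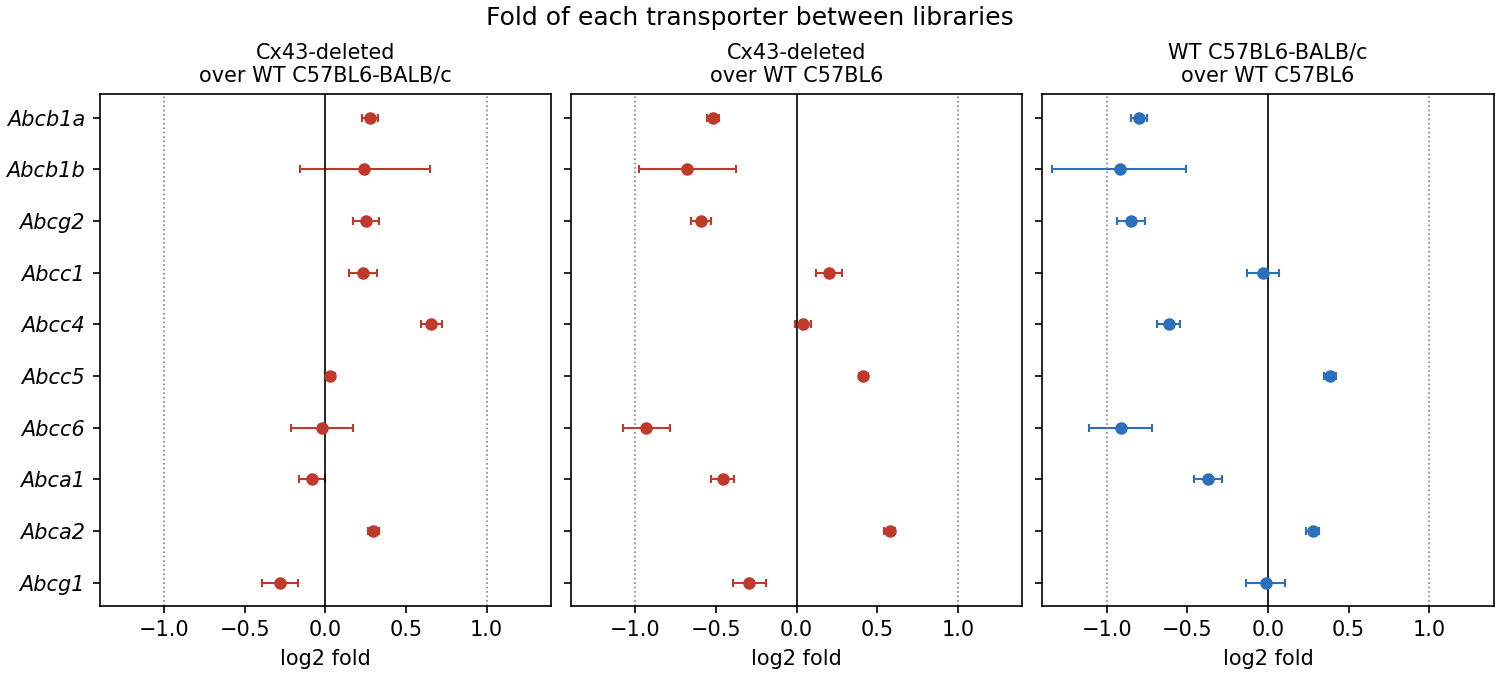
Fold of each transporter on a log2 axis in the 3 comparisons, with exact binomial 95% intervals of the fold from the reads. Dotted lines mark 2-fold. No point reaches 2-fold in any panel, and in the panel over WT C57BL6-BALB/c Abcc4 is the point furthest to the right. With the endothelial markers set level, 3 would reach it over WT C57BL6 and 1 between the WT libraries. Of the 16307 measured genes, 4675 and 2489 would then be 2-fold higher in these comparisons.

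Counted over the 10 transporters, none differed by 2-fold or more, except that with the endothelial markers set level Abcc1, Abcc5 and Abca2 were 2-fold higher than in WT C57BL6, and Abcc5 was so in WT C57BL6-BALB/c over WT C57BL6. That scaling also placed 4675 of the 16307 measured genes 2-fold higher than in WT C57BL6, and 2489 between the WT libraries. With the main scaling, against WT C57BL6-BALB/c, 0 of 10 were 2-fold higher and 0 of 10 were 2-fold lower, where 0.914% and 0.92% of the 16307 measured genes were. Against WT C57BL6, 0 of 10 were 2-fold higher and 0 lower, where 1.4% and 2.59% of measured genes were. Between the WT libraries, 0 of 10 were 2-fold higher in WT C57BL6-BALB/c vessels and 0 lower, where the shares of measured genes were 1.05% and 1.8%. At 1.5-fold, Abcc4 alone was higher than in WT C57BL6-BALB/c vessels (background 2.81%) and none was lower (3.71%). Against WT C57BL6 none was 1.5-fold higher (8.6%), and Abcb1b, Abcg2 and Abcc6 were lower (11.8%). Between the WT libraries none was 1.5-fold higher in WT C57BL6-BALB/c (6.13%) and Abcb1a, Abcb1b, Abcg2, Abcc4 and Abcc6 were lower (8.45%).

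Smaller differences were outside counting error for most of the 10, as they were for many genes at this depth. The interval of the fold left out 1 for 7 of 10 transporters against WT C57BL6-BALB/c (49.5% of measured genes), for 9 of 10 against WT C57BL6 (70.8%) and for 8 of 10 between the WT libraries (60.6%). Whether an interval leaves out 1 depends on a gene's number of reads. The measured genes were not matched to the transporters for reads, so these shares are not like for like. In Cx43-deleted vessels 4 of 10 stood above both WT libraries, where 33.6% of measured genes did, and 3 of 10 below both, where 35.6% did. These shares, from the main scaling, are close to the background. For Abcc4, Abcc5 and Abcc6 the counting interval of the fold over the nearer WT library includes 1, so their placement is within counting error. Abcc4 and Abcc5 left the first group with the library total alone. The counts were 8 and 0 with the endothelial markers set level. That scaling raises ratios over both WT libraries for genes in general. The shares of all measured genes were not counted under it, so 8 and 0 cannot be read against a background. The median log2 ratio of the 10 was 0.22 over WT C57BL6-BALB/c and −0.37 over WT C57BL6, where that of all measured genes was 0.00 and −0.03, and it was −0.49 for WT C57BL6-BALB/c over WT C57BL6, where that of all measured genes was −0.03. Any 2 of these comparisons share a library, so their values are given side by side only.

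Within a library the pumps could be set against each other without any scaling between libraries. The size of each share of Abcb1a rests on a count that is itself uncertain. Of the 50-base windows of Abcb1a, 18.6% also occur in transcripts of other genes, and the intervals do not cover this. Abcg2 stood at 68.6% of Abcb1a per kilobase in Cx43-deleted vessels (exact interval 66.4% to 70.8%), 69.6% in WT C57BL6-BALB/c vessels (65.8% to 73.7%) and 72.2% in WT C57BL6 (69.5% to 75%), and the 3 intervals overlap. Abcb1b made 1.72%, 1.76% and 1.92% of Abcb1a, with intervals that overlap. Abcc4 did not keep step: it stood at 61.9% of Abcb1a in Cx43-deleted vessels (60.3% to 63.5%), 47.5% in WT C57BL6-BALB/c vessels (45.2% to 49.9%) and 41.9% in WT C57BL6 (40.5% to 43.4%). Abcc1 was at 22.8% and 23.5% in the libraries of mixed background and at 13.8% in WT C57BL6. Abcc5 was at 204.7% of Abcb1a in Cx43-deleted vessels, 242.9% in WT C57BL6-BALB/c vessels and 107.0% in WT C57BL6, and Abca2 was at 135.2%, 133.1% and 63.1%.

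Endothelial markers, like the drug pumps, were lower in both libraries of mixed background than in WT C57BL6. Their median log2 ratio was −0.15 over WT C57BL6-BALB/c and −0.81 over WT C57BL6, with 15 of 20 below both WT libraries, and −0.66 between the WT libraries. The marker above both was Slc2a1, the glucose carrier of the barrier, at 813.6 per kilobase in Cx43-deleted vessels, 483.4 in WT C57BL6-BALB/c vessels and 641.3 in WT C57BL6. As a share of the summed endothelial markers per kilobase, Abcb1a was 2.36% in Cx43-deleted vessels, 2.14% in WT C57BL6-BALB/c vessels and 2.24% in WT C57BL6, and Abcg2 was 1.62%, 1.49% and 1.62%. These shares depend on Slc2a1: with it left out of the sum, Abcb1a was 3.69% in Cx43-deleted vessels, 2.80% in WT C57BL6-BALB/c vessels and 2.76% in WT C57BL6, and Abcg2 was 2.53%, 1.95% and 1.99%. Without Slc2a1 the share of Abcc4 was 2.28% in Cx43-deleted vessels, 1.33% in WT C57BL6-BALB/c vessels and 1.15% in WT C57BL6. With the endothelial markers set level, the log2 ratio of Abcg2 was 0.40 over WT C57BL6-BALB/c, 0.21 over WT C57BL6 and −0.19 between the WT libraries, and that of Abcb1b was 0.36, 0.12 and −0.24. The levels of Abcb1a, Abcg2 and Abcb1b against WT C57BL6 thus change sides with this scaling. The part of endothelial content in these values was not tested.

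Other cell types also differed between the libraries. All 10 choroid plexus markers were highest in WT C57BL6 and lowest in WT C57BL6-BALB/c vessels, the order that Abcb1a, Abcb1b and Abcg2 had, and their summed level per kilobase was 5620.4 in Cx43-deleted vessels, 4119 in WT C57BL6-BALB/c vessels and 10786 in WT C57BL6. The epithelium of that tissue expresses Abcc1 and Abcc4, and its median log2 ratio was 0.39 over WT C57BL6-BALB/c beside 0.66 for Abcc4 and 0.23 for Abcc1. Over WT C57BL6 that median was −0.85 beside 0.04 for Abcc4 and 0.20 for Abcc1, and between the WT libraries it was −1.23 beside −0.61 and −0.03. All 10 smooth muscle markers were below both WT libraries (medians −0.83 and −0.43), and pericyte markers had medians of −0.03 and −0.70. Microglia and macrophage markers, of cells in which Abca1 and Abcg1 are also expressed, had medians of 0.11 and −0.44, with 1 of 10 above both WT libraries and 3 below both. Astrocyte markers had medians of −0.06 and −0.27, and fibroblast markers −0.08 and −0.37. The part of these cell types, oligodendrocytes and neurons included, in the transporter values was not tested.

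**Figure D3:**
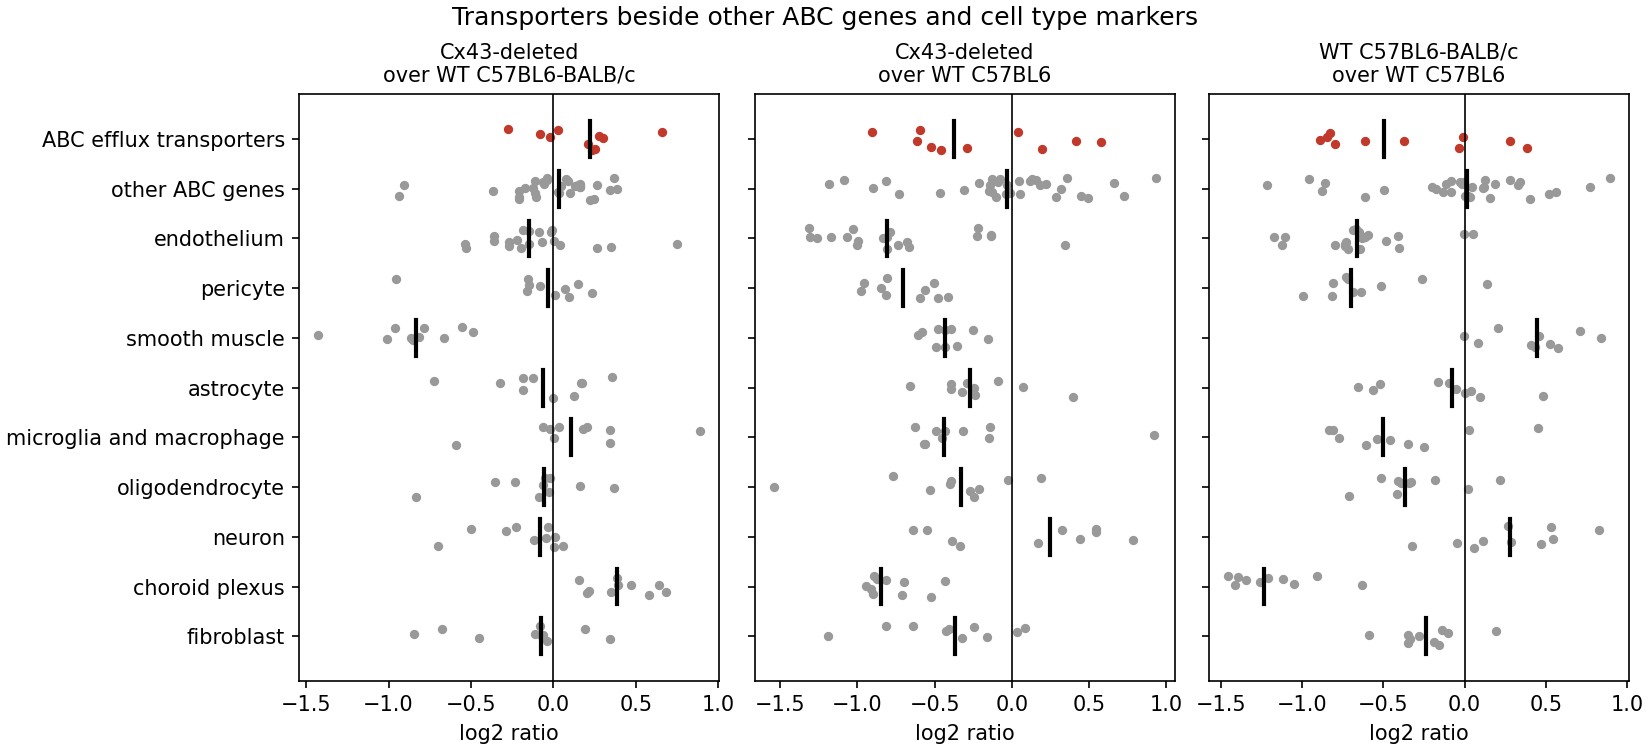
Log2 ratios of the 10 transporters (red), the 33 other measured ABC genes and the markers of 9 cell types (grey) in the 3 comparisons, with a bar at each median. The transporters lie between −0.28 and 0.66 in the left panel. Endothelial medians are −0.15, −0.81 and −0.66 from left to right, and choroid plexus medians are 0.39, −0.85 and −1.23.

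The other genes of the ABC family showed no common direction. Of 43 listed, 33 were measured, and 11 stood above both WT libraries, 11 below both and 11 between. Their median log2 ratio was 0.04 over WT C57BL6-BALB/c and −0.03 over WT C57BL6. None was 2-fold or more from both WT libraries. Against WT C57BL6 alone, 2 were 2-fold lower, Tap1 (log2 ratio −1.09) and Abcg3 (−1.18), which were named after their values were seen. Abcb8, a mitochondrial transporter, stood at 18.3 per kilobase in Cx43-deleted vessels, 34.4 in WT C57BL6-BALB/c vessels and 18.5 in WT C57BL6, so the WT library of mixed background stood apart. Tap2, which moves peptides to class I molecules, was at 24.4, 25.1 and 45.6, the low pair being the mixed background. Abcg4, a relative of Abcg1 from neurons and glia, was at 35.7 in Cx43-deleted vessels, 31.9 in WT C57BL6-BALB/c vessels and 21.5 in WT C57BL6. Abca3, Abcf3 and Abcf1 varied little, with levels per kilobase between 23.8 and 30.3 in the 3 libraries.

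**Figure D4:**
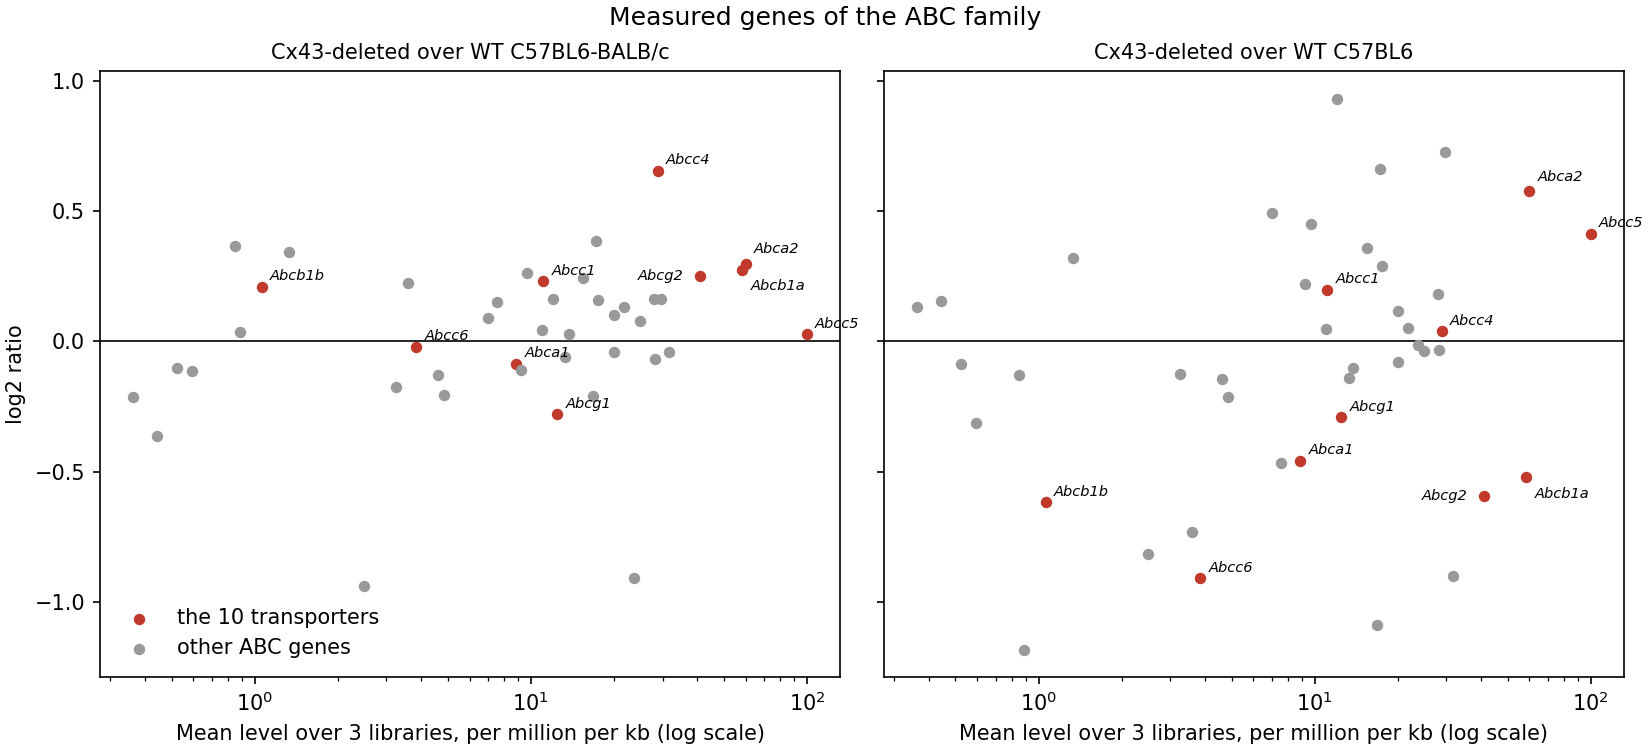
Log2 ratio of the measured ABC family genes against their mean level over the 3 libraries, in CPM per kilobase on a log axis, over WT C57BL6-BALB/c (left) and over WT C57BL6 (right). The 10 transporters are red and labelled, the other 33 genes grey. Abcc4 is the highest point of the left panel (0.66), where Abcb1a, Abcg2 and Abca2 lie near 0.28, 0.25 and 0.30, and in the right panel Abcb1a and Abcg2 are at −0.52 and −0.59.

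The regulators known to act on these transporters were not beyond 2-fold. Of 16 nuclear receptors and other factors of the xenobiotic response, 14 were measured, with 5 above both WT libraries and 6 below both. Nr1i2 (the pregnane X receptor) and Vdr did not reach the minimum level in any library. Nr1i3, the constitutive androstane receptor that induces these pumps, named after its values were seen, stood at 52.3 in Cx43-deleted vessels, 41.7 in WT C57BL6-BALB/c vessels and 49.2 in WT C57BL6. Ahr, the receptor for dioxin-like compounds, was at 17.4, 21.5 and 20.8. Nr3c1, the glucocorticoid receptor, was at 106.7 in Cx43-deleted vessels, 127.0 in WT C57BL6-BALB/c vessels and 157.5 in WT C57BL6. Hif1a and Esr1 were also below both WT libraries, with log2 ratios of −0.22 and −0.26 over WT C57BL6-BALB/c.

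Among 18 genes of the liver X receptor (LXR) pathway and sterol efflux, which also governs Abca1 and Abcg1, 3 stood above both WT libraries and 8 below both, and the medians were 0.04 over WT C57BL6-BALB/c and −0.43 over WT C57BL6. The receptors themselves lay between or beside the WT values: Nr1h2 stood at 118.1 in Cx43-deleted vessels, 101.6 in WT C57BL6-BALB/c vessels and 118.2 in WT C57BL6, and Nr1h3 at 17.6, 14.2 and 19.2. Both were named after their values were seen. Pltp, the phospholipid transfer protein and an LXR target, was at 647.2 in Cx43-deleted vessels, 776.5 in WT C57BL6-BALB/c vessels and 1205 in WT C57BL6. Scd2, a fatty acid desaturase, was at 614.4 in Cx43-deleted vessels, 721.9 in WT C57BL6-BALB/c vessels and 973.8 in WT C57BL6. Apoa1, the main acceptor of sterol from Abca1, was near the limit of measurement, at 1.22, 0.662 and 0.509.

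Uptake carriers, which bring drugs and hormones into cells, had no common direction either. Of 16 listed, 15 were measured, with 4 above both WT libraries and 3 below both, and a median log2 ratio of 0.19 over WT C57BL6-BALB/c and −0.07 over WT C57BL6. The organic anion and thyroid hormone carrier Slco1c1 stood at 274.0 in Cx43-deleted vessels, 309.4 in WT C57BL6-BALB/c vessels and 559.1 in WT C57BL6. Slco2b1, a relative of it, was at 80.5, 102.5 and 160.1. The nucleoside carriers Slc29a1 and Slc29a2 were above both WT libraries, with log2 ratios of 0.23 and 0.24 over WT C57BL6-BALB/c. Slco1a4, a carrier of anionic drugs and hormones in barrier endothelium, was at 530.0 in Cx43-deleted vessels, 427.9 in WT C57BL6-BALB/c vessels and 786.2 in WT C57BL6, the order of Abcb1a. The organic cation carrier Slc22a3 stood at 2.77 in Cx43-deleted vessels, 15.4 in WT C57BL6-BALB/c vessels and 2.62 in WT C57BL6. Slco1a4 and Slc22a3 were named after their values were seen.

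Of the drug metabolism enzymes, 16 of 18 were measured, with 2 above both WT libraries and 7 below both. Sult1a1, a sulfotransferase whose products can leave the cell through ABC exporters, was the one 2-fold above both, at 63.6 in Cx43-deleted vessels, 26.9 in WT C57BL6-BALB/c vessels and 28.6 in WT C57BL6 (0.38% of measured genes were 2-fold above both, and 0.35% 2-fold below both). The glutathione transferases Mgst1 and Gsta4 were below both, with log2 ratios of −0.48 and −0.37 over WT C57BL6-BALB/c, and so was the epoxide hydrolase Ephx1 (−0.31). Of 14 genes for membrane anchoring and turnover of the pumps, 13 were measured, with 3 above both WT libraries and 8 below both. Moesin (Msn), which ties membrane proteins to actin, stood at 197.6 in Cx43-deleted vessels, 274.2 in WT C57BL6-BALB/c vessels and 397.9 in WT C57BL6. Ezrin (Ezr), of the same family, was at 78.6, 103.4 and 128.6. The caveolins Cav1 and Cav2, of the membrane pits in which P-glycoprotein has been found, were at log2 ratios of −0.37 and −0.40 over WT C57BL6-BALB/c and −0.83 and −0.90 over WT C57BL6. These 4 were named for lying furthest outside both WT libraries.

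The sequence before the transcription start was taken from RefSeq (GRCm38.p6), as the 250 bases upstream of the annotated start. A window was found for 7 of the 10 transporters. Abcg2 and Abcc4 had more than 1, and the window nearest to the start of the transcript measured here was taken. For 6 of the 7 it lay within 200 bases of that start. For Abcb1a the window lay 92986 bases away and was not used. Abcc1, Abcc6 and Abcg1 had no entry. Shown are the windows of Abcg2, of Abcc4, the transporter with the largest fold over the WT library of its background, and of Abca1. Each runs 5′ to 3′ on the gene's own strand, with the matches to 6 motifs in capitals.
Abcg2, chr6:58640296-58640545, plus strand: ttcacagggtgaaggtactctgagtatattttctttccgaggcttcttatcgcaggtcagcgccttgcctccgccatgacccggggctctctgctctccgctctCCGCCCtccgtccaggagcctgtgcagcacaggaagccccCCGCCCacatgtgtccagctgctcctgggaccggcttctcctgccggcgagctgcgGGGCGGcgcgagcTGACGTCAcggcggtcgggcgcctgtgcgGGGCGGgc
Abcc4, chr14:118706220-118706469, minus strand: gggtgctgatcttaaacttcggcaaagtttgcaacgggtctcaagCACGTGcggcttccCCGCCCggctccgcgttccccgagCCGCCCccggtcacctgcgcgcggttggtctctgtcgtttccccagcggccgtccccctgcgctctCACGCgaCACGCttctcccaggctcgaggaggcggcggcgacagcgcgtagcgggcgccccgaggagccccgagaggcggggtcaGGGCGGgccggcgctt
Abca1, chr4:53159896-53160145, minus strand: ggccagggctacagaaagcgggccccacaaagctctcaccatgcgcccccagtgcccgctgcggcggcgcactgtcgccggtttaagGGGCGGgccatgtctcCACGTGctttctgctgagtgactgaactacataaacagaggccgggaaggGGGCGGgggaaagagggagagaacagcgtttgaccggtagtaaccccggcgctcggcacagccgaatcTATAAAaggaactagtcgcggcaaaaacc
The motifs were chosen after these windows were seen, were searched on both strands and were allowed to overlap. They were the TATA box (TATAAA), the CCAAT box, the GC box (GGGCGG), the core of the xenobiotic response element (GCGTG), the E-box (CACGTG) and the cyclic AMP response element (TGACGTCA). GGGCGG was in 4 of the 6 windows and in 32.7% of the 32851 windows of the table. Abcg2 held 4 copies of it and TGACGTCA, which 1.55% of windows hold. The window shown for Abcg2 lies near the start of the transcript annotated for nonsense-mediated decay. A protein-coding transcript with 4942 reads in Cx43-deleted vessels also starts near there. The one with 4963 reads starts near another window, chr6:58596422-58596671, which held 2 copies of GGGCGG and no TGACGTCA. Abcc4 held 3 copies of GGGCGG, 2 of GCGTG (28.2% of windows) and 1 CACGTG (6.02%), and 72.0% of its bases were G or C, where the median window had 52.4%. Abca1 held TATAAA (12.4% of windows), 2 copies of GGGCGG and 1 CACGTG. The CCAAT box (33.8%) was in 1 of the 6. A match is a description of the letters and says nothing of binding here.

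Genes whose pattern over the 3 libraries was nearest were found by the distance between log2 levels centred on their mean, over 11959 genes with a mean level of 5 or more. For Abcb1a they were Abt1 (distance 0.02), Mvd (0.02), an enzyme of cholesterol synthesis, and Slc25a45 (0.02), and 60 genes lay within 0.1. For Abcg2 they were Sdhaf1, Gusb and Ccdc117, each at 0.02, with 62 genes within 0.1. Abcb1a and Abcg2 were 0.05 apart, and 0.125% of the genes were nearer to Abcb1a than Abcg2 was. For Abca1, Znrd1 and Dnajc14 were among the nearest, both within 0.01, and 784 genes lay within 0.1. With 3 libraries, each a single sample, such nearness describes the order and spacing of 3 values only.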

How the data were processed

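RNA from brain vessels was sequenced in 3 libraries, 1 per group, grouped by the labels. The authors deposited, for each of 82813 Ensembl transcripts, a whole-number read count that had not been normalised, and that count as a fraction of a library total, per the file headers; dividing the 2 gave the totals. Reads on overlapping transcripts were counted on each of them, since the counts add up to 2.55, 2.53 and 2.45 times the totals (here and below in the order Cx43-deleted, then WT C57BL6-BALB/c, then WT C57BL6). Strand was lost with the TruSeq RNA v2 kit of the labels' protocols. The submitters' processing notes name CASAVA 1.8.2, Bowtie and mm10; the counting program, annotation release, read length and handling of multiply matching reads were not given in the sources used here. Deposited coordinates reach 197054592 on chromosome 1, beyond the last GRCm38 gene at 195323493, and so were not used. Names and positions come from GENCODE M21 on GRCm38: 69375 of 82813 transcripts matched (83.8%), 213 of these lay on another chromosome and were left out, and the rest carried 83.4%, 83.4% and 84.0% of the counts.

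A gene's most abundant transcript was taken as the one with the most reads relative to the library totals. Its reads were divided by the product of library total and TMM factor (0.973, 0.999 and 1.03), giving the level in CPM, in which 1 is 53.5, 21.2 and 25.5 reads. The floor of 3 reads is a level of 0.0561, 0.142 and 0.117. Genes at 1 or more in at least 1 library were called measured. Log2 ratios used a pseudocount of 0.5, which understates ratios of low genes; folds with exact binomial 95% intervals used the reads themselves. Python 3.11.15, numpy 2.4.6, pandas 2.3.3 and scipy 1.17.1 were used. Reads are not independent molecules, so intervals cover counting error only. No test was possible.

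The transporters, the gene lists and the alternatives were chosen with earlier results of these data known. Named were the 10 transporters, Gja1, the 6 other ABC genes of highest mean level per kilobase and any 2-fold beyond both WT libraries on the same side, up to 4 genes of each other list furthest outside both WT libraries, and the 3 genes nearest in pattern to Abcb1a, Abcg2 and Abca1; other names are marked in the text. On simulated counts for 16307 genes, 50 of 50 genes simulated 4-fold up and 47 of 50 simulated 4-fold down were found 2-fold beyond both WT libraries, and 0 of 50 at 1.5-fold in either direction. In the simulation the counting interval held the simulated fold for 15368 of 16107 unchanged genes. In the real libraries it left out 1 for 49.5% to 70.8% of measured genes. The simulation therefore does not show what would be found with spread between animals. Alternatives covered the scaling, pseudocount, filter, transcript choice and fold threshold. Single genes of the lists and of the nearest patterns that are not named are not reported here.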

Additional observations from a re-analysis of the deposited data

How the results depend on the processing

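Of 210 ratios of the transporters recomputed under settings that can change a gene's own ratio, 194 kept their sign, and 11 of the 16 that did not came from setting the endothelial median to 0. Of 108 ratios of single transcripts, an alternative added after the data were seen, 96 kept the sign of the gene. The endothelial sum without Slc2a1 and the annotated length of Abcg1 were also chosen after the data were seen. Setting the endothelial medians of −0.15, −0.81 and −0.66 to 0 moved genes by about as much the other way, the median of all genes included. Genes of low level moved by less because of the pseudocount, as Abcb1b did over WT C57BL6 (log2 ratio −0.62 before and 0.12 after). The median of the transporters was then 0.37 over WT C57BL6-BALB/c, 0.43 over WT C57BL6 and 0.16 between the WT libraries; 3 transporters were 2-fold higher than in WT C57BL6 and 1 was so in WT C57BL6-BALB/c over WT C57BL6; 8 stood above both and 0 below both. Under that scaling 239 measured genes were 2-fold above WT C57BL6-BALB/c, 4675 higher and 58 lower than in WT C57BL6, and 2489 higher and 60 lower between the WT libraries. The measured genes above or below both WT libraries were not counted under it. With the library total alone, 2 transporters were above both WT libraries. With a pseudocount of 0.1, 351 genes were 2-fold higher than in WT C57BL6 and 268 in WT C57BL6-BALB/c over WT C57BL6, and with a minimum level of 5 the last count was 105. At 1.5-fold, the transporters counted were 1 above WT C57BL6-BALB/c, 3 lower than in WT C57BL6 and 5 lower between the WT libraries, and the measured genes were 459 higher and 605 lower, 1402 higher and 1920 lower, and 1000 higher and 1378 lower. The cause of the shifts other than those at 1.5-fold was not tested. No paired analysis was possible because each group had 1 library. No library could be left out for the same reason. The depth of WT C57BL6-BALB/c limits Abcb1b most, with 71 reads.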
